A study of Mus musculus with 12 samples.

Results

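RNA sequencing was done on niche macrophages sorted from mouse bone marrow, and 6 libraries are compared here out of 12 in the study: 3 from marrow with breast cancer metastasis and 3 from normal marrow. They are the libraries whose labels give VCAM1, CD163 and CCR3 as the sorting antigens. The other 6 are general macrophages, sorted by CD11b and F4/80, and serve as a reference. Metastasis was modelled in female Albino B6 mice that received E0771 cells, a mouse breast cancer line, into the caudal artery at 8 weeks of age. Normal marrow came from healthy control mice, for which no age and no sham injection are given. The study describes the 3 libraries of each group as different mice. The sample titles use the name general macrophages for both sorts, so the sorting antigens were taken to define the population. Each library is bulk RNA from the sorted cells of 1 marrow.

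Macrophages of this kind sit at the centre of erythroblastic islands, where red cell precursors attach to them, partly through VCAM1 on the macrophage and an integrin on the erythroblast, and mature. The central macrophage engulfs the nuclei that the erythroblasts expel, degrades haem with haem oxygenase (Hmox1) and exports the iron through ferroportin (Slc40a1). CD163 takes up haemoglobin bound to haptoglobin. The comparison asks how the RNA of these cells differs between metastatic and normal marrow.

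Library totals ran from 13687957 to 21579543 counts. Levels are given as CPM, the count per library total in the usual CPM unit after scaling by TMM factors, which correct for differences in library composition, and normal libraries are always listed in the order A, B, C and metastatic ones in the order 1, 2, 3. The 6 libraries did not separate by group over all genes: Pearson's r of log2 CPM was 0.626 to 0.652 within the normal group, 0.704 to 0.754 within the metastatic group and 0.646 to 0.721 between groups. Genes with at least 10 counts numbered 8486 ± 701 (SD, n = 3) in normal and 10357 ± 1092 (SD, n = 3) in metastatic libraries, without overlap, and the exact two-sided permutation p was 0.1, the smallest that 3 against 3 can give (0.5 after adjustment over 5 library measures). The part of this difference in the results was not tested. Of 12882 genes tested, 6055 (47%) had 3 counts or fewer in at least 1 of the 6 libraries, so many genes were detected in some libraries of a group and not in others.

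The sorting antigens came first as a check of the sort. Vcam1 (chr3:116110020-116129688; gene positions are RefSeq's on GRCm38.p6), the adhesion molecule of the island, was at 2248, 2088 and 2146 CPM in normal libraries and at 1621, 938 and 938 CPM in metastatic ones. All 3 metastatic libraries lay below all 3 normal ones, and the log2 fold change, metastatic over normal, was -0.89 ± 0.26 (SE, edgeR adjusted p = 0.313). Ccr3, a receptor for eotaxin chemokines, was at 675, 601 and 378 CPM in normal and at 316, 118 and 168 CPM in metastatic libraries, again without overlap (-1.46 ± 0.37, adjusted p = 0.208). Cd163 was at 941, 735 and 710 CPM in normal marrow and at 789, 297 and 344 CPM in metastatic marrow. There metastatic library 1 lay among the normal ones, and the difference (-0.74 ± 0.66, adjusted p = 0.745) was within the spread.

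Of the antigens used for the general sort, Adgre1, which encodes F4/80, was at 589, 509 and 343 CPM in normal and 262, 144 and 164 CPM in metastatic libraries (-1.34 ± 0.33, adjusted p = 0.208). Itgam, which encodes CD11b and is shared with neutrophils and monocytes, was at 328, 370 and 547 CPM against 330, 364 and 567 CPM (0.02 ± 0.26, adjusted p = 0.997). The Adgre1 values did not overlap and those of Itgam covered the same range. All 5 antigens were detected in every library. None of the 5 was called by edgeR's main test, while its newer form called Ccr3 and Adgre1 lower and DESeq2 called Vcam1, Ccr3 and Adgre1 lower.

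All 15 markers of niche macrophages had a negative fold change, and 7 of them had all metastatic libraries below all normal ones. Among all 12882 tested genes, 7245 had a negative fold change and 7.11% had such separated groups. All 15 averaged 20 CPM or more over the 6 libraries. Of 6362 genes at that level, 4139 were negative and 717 were separated downward. The sorting antigens Vcam1, Ccr3 and Adgre1 are among the 7, and Cd163 is also among the 15. With library size as the only scaling, 5 of the 15 were separated, against 4.63% of all genes. Their summed level was 13723, 14814 and 13782 CPM in normal and 9719, 7308 and 8509 CPM in metastatic libraries, a ratio of metastatic to normal means of 0.603. Lysozyme (Lyz2), which monocytes and neutrophils also express, made up 54.9% of that sum. Without it the sums were 7456, 6344 and 6446 CPM against 4976, 2686 and 2729 CPM, a ratio of 0.513. Without the sorting antigens, and with Lyz2 kept, the other 11 markers summed to 9270, 10881 and 10205 CPM against 6731, 5812 and 6894 CPM, a ratio of 0.64. In bulk samples, fewer cells of a type and less RNA per cell cannot be told apart.

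Markers of other cells were measured in the same libraries, and those of neutrophils were abundant in both groups. The 23 neutrophil genes summed to 16035, 20773 and 18535 CPM in normal and to 22319, 23515 and 23657 CPM in metastatic libraries, so at least as much as the macrophage markers. Chil3 carried the difference between the groups: without it the neutrophil sums were 12862, 16095 and 13927 CPM against 15031, 14834 and 14052 CPM, a ratio of 1.02. The granule gene Ngp, at 3857 to 5750 CPM over the 6 libraries, was the largest of the remaining members. Whether the neutrophil RNA came from cells inside the sort gate was not tested, nor was its part in the results.

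The sums of most other marker lists were lower in metastatic libraries or overlapped. Markers of mast cells and basophils summed to 462 to 635 CPM in normal and 243 to 333 CPM in metastatic libraries. Those of dendritic cells ran from 303 to 616 CPM and from 173 to 248 CPM. Stromal and endothelial markers without Vcam1 gave 284 to 375 CPM and 123 to 218 CPM, and megakaryocyte markers, 83.5% of them Plek, gave 741 to 901 CPM and 449 to 621 CPM. The platelet gene Pf4 was at 0.0739 CPM or less in every library. These 4 sums did not overlap, so the lower level was not limited to the list of niche macrophage markers. Which cells these transcripts came from, and their part in the results, was not tested.

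Sums of erythroid markers (1291 to 1734 CPM in normal, 1068 to 2465 CPM in metastatic), B and plasma cell markers (1488 to 2563 CPM and 1215 to 4179 CPM), T and NK cell markers (303 to 705 CPM and 181 to 411 CPM) and monocyte markers (2528 to 3197 CPM and 2592 to 2757 CPM) overlapped between the groups. Eosinophil markers without Ccr3 were at 82.9 to 155 CPM in normal and 101 to 154 CPM in metastatic libraries. The 8 epithelial and tumour cell markers in the table summed to 55.3 to 133 CPM in normal and 39.7 to 102 CPM in metastatic libraries, with overlap. Of the defining epithelial genes, Krt8 was at 0.0370 to 0.0874 CPM in metastatic libraries and Epcam at 0 to 0.0437 CPM, against 26.1, 7.01 and 0.0502 CPM in normal ones. Cdh1, the adhesion protein E-cadherin, lay the other way, at 0.162, 16.2 and 0.0502 CPM in normal and 33.7, 3.41 and 23.5 CPM in metastatic libraries, with overlap.

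**Figure D1:**
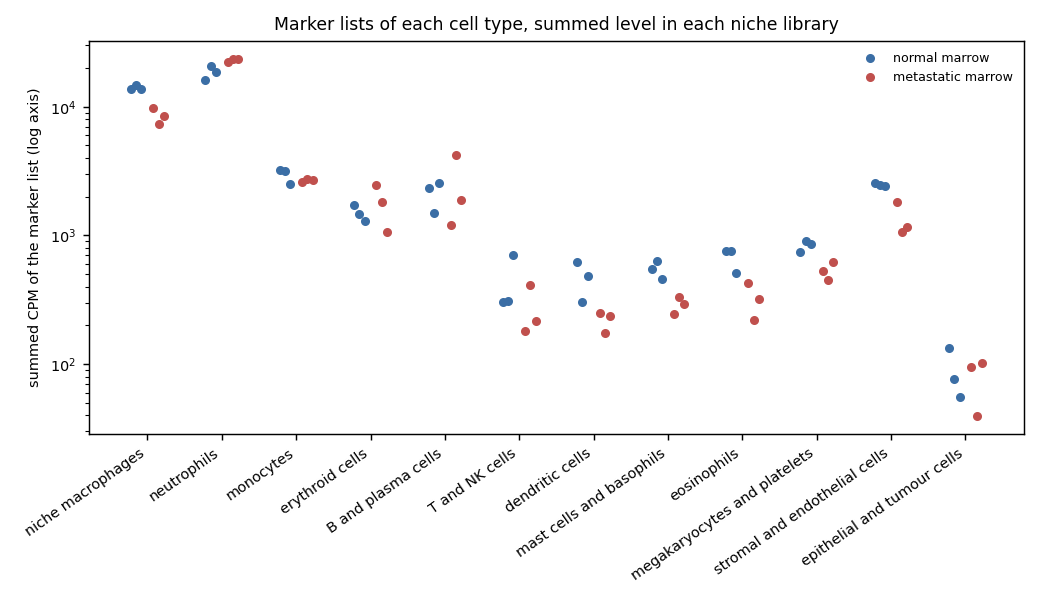
Summed CPM of the cell type marker lists on a log axis, with 1 point for each of the 3 normal and 3 metastatic libraries. The macrophage markers lie at 13723 to 14814 CPM in normal and 7308 to 9719 CPM in metastatic libraries, and the neutrophil markers at 16035 CPM or more in every library.

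Across all genes the comparison gave few calls. edgeR's quasi-likelihood test with Benjamini-Hochberg adjustment called 1 of 12882 genes (0.00776%) at an adjusted p under 0.05, the thrombospondin gene Thbs1, which fell. At an unadjusted p under 0.05 there were 1642 genes. The count differed between tests. With the newer form of the same test, used without its legacy option, 8 genes (0.0621%) were called higher and 23 (0.179%) lower, among them Slc40a1, H2-Aa, Ccr3, Adgre1, Igf1, Ms4a1 and Pax5 on the lower side and Chil3, Fosb, Egr1, Jchain and Hba-a1 on the higher side, whose values follow. DESeq2 called 628 genes (4.88%) higher and 312 (2.42%) lower, but 85.4% of the former and 72.1% of the latter had a library with 3 counts or fewer.

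Counts of separated genes serve as the background for the gene groups below. All 3 metastatic libraries were above all 3 normal ones for 725 genes (5.63%) and below them for 916 genes (7.11%). Of the 725, 62.2% had a normal library with 3 counts or fewer, and of the 916, 21.4% had such a metastatic library, beside the larger number of genes detected in metastatic libraries. The median log2 fold change over all tested genes was -0.17, with quartiles of -0.91 and 0.76, and scaling by library size alone moved that median to 0.064. With that scaling the balance of separated genes turned, to 976 higher (7.58%) and 596 lower (4.63%), and in the fit on the 6 libraries alone it was 702 and 618. List medians are therefore read against it. Among 6362 genes averaging 20 CPM or more over the 6 libraries it was -0.26, 4139 of them had a negative fold change, and 207 were separated upward and 717 downward.

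**Figure D2:**
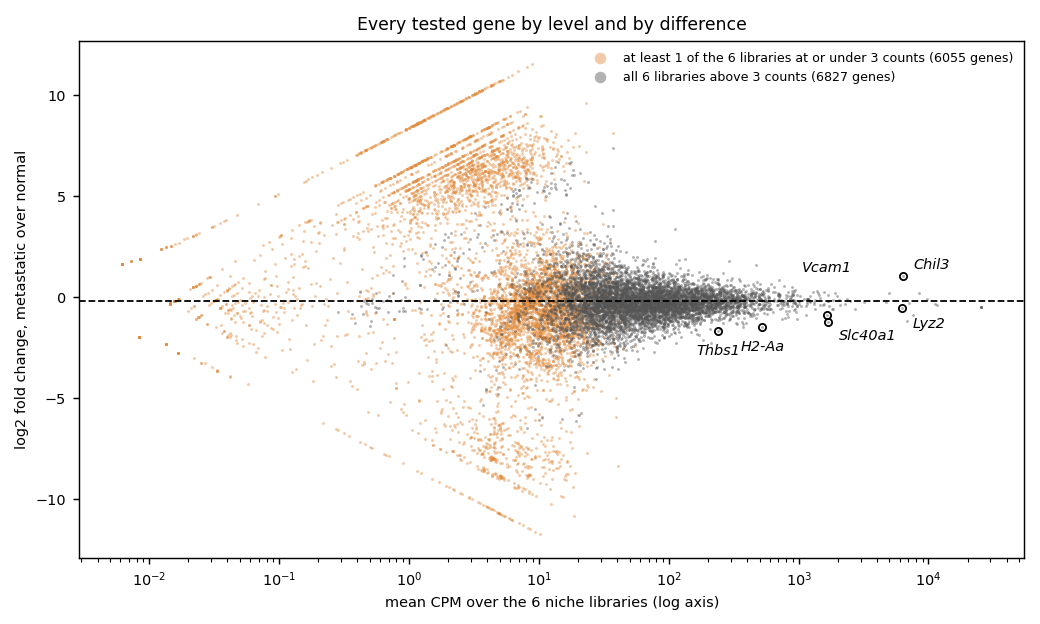
Log2 fold change, metastatic over normal, of the 12882 tested genes against their mean CPM on a log axis. Genes with 3 counts or fewer in at least 1 library (6055, orange) spread widely, while those without (6827, grey) lie closer to 0.

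Thbs1 (chr2:118111876-118127133) encodes thrombospondin 1, a secreted matrix glycoprotein that activates latent TGF-beta and bridges dying cells to phagocytes. It was at 372, 420 and 299 CPM in normal libraries and at 124, 139 and 77.3 CPM in metastatic ones. The highest metastatic library lay below the lowest normal one by more than the normal libraries differed among themselves, and Thbs1 fell by 1.68 ± 0.26 on the log2 scale (SE, edgeR adjusted p = 0.0438). In general macrophages its fold change was -1.63, and the difference between the 2 effects was -0.04 (adjusted p = 1). Leaving out 1 of the 6 libraries, another scaling or another test moved its adjusted p between 1.18e-07 and 0.536, and it was called in 12 of 18 alternatives.

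Genes of the erythroblastic island macrophage programme were lower as a group. Of 28 genes listed, 27 passed the low-count filter, 25 of them had a negative fold change and 11 had all metastatic libraries below all normal ones, where 7.11% of all genes did. With library size as the only scaling, 8 were separated downward, where 4.63% of all genes were. None had the metastatic libraries all above. The median was -0.90 against -0.17 over all genes, with quartiles of -1.24 and -0.73, and the distance between the 2 medians was -0.73 both with TMM factors and with library size alone. Of the 27, 24 averaged 20 CPM or more, all negative, with a median of -0.94, against -0.26 over all genes at that level. Of those 6362 genes, 4139 were negative and 717 were separated downward. Vcam1, Cd163, Mertk, Spic, Maf, Mrc1, C1qa, C1qb and C1qc are also niche macrophage markers, so the lists share their values. The 2 members with a positive fold change were Timd4 and Stab1, both with overlapping groups, and Stab1 had 3 libraries at 3 counts or fewer. Not one member was called by edgeR's main test, and 2, Slc40a1 and Igf1, were called lower by its newer form.

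The 3 metastatic libraries differed in how low these genes were. Against the mean of the normal libraries, 22 of 27 members were lower in library 1, 25 in library 2 and 25 in library 3, and the median log2 ratio was -0.40, -1.44 and -1.30. Leaving out metastatic library 1 took the list's median to -1.43, and leaving out any 1 of the 6 libraries kept it between -1.43 and -0.76. In general macrophages the same 27 genes had a median of -0.16.

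Ferroportin, the iron exporter Slc40a1 (chr1:45908070-45926532), had the smallest p of the group. Its level was 2839, 2360 and 1927 CPM in normal and 1258, 798 and 948 CPM in metastatic libraries. The groups did not overlap, and the fold change of -1.25 ± 0.24 missed the threshold (adjusted p = 0.0825). It passed in 8 of 18 alternatives, among them the newer form of edgeR's test.

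Haem oxygenase 1 (Hmox1, chr8:75093618-75100593), which opens the haem ring, was at 1388, 1056 and 859 CPM in normal and 835, 422 and 404 CPM in metastatic libraries (-0.99 ± 0.29, adjusted p = 0.313). Slc48a1, which moves haem out of the phagolysosome, was at 281, 193 and 186 CPM against 143, 57.1 and 73.2 CPM (-1.27 ± 0.49, adjusted p = 0.381). Trf, which encodes the iron carrier transferrin, was at 596, 387 and 425 CPM against 223, 172 and 179 CPM (-1.29 ± 0.51, adjusted p = 0.381). For each of the 3 genes the highest metastatic library was below the lowest normal one, narrowly so for Hmox1.

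Over the whole list of haem breakdown and iron handling, 20 of 27 tested genes had a negative fold change, 4 had separated groups downward and none upward (3 and 2 with library size as the only scaling), and the median was -0.53, against 0.03 in general macrophages. Of all genes 7.11% were separated downward and 5.63% upward, or 4.63% and 7.58% with that scaling. Over the 21 members averaging 20 CPM or more the list's median was -0.36, close to the -0.26 of all genes at that level. Those 4 were Hmox1, Slc40a1, Slc48a1 and Trf, of which Hmox1, Slc40a1 and Trf are also on the island list. The transferrin receptor Tfrc, which brings iron into cells and is abundant on erythroblasts, went the other way, at 135, 129 and 229 CPM in normal and 364, 359 and 188 CPM in metastatic libraries (0.89 ± 0.41, adjusted p = 0.389). Metastatic library 3 lay among the normal ones.

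Receptors that bind dying cells and nuclei were among the island genes too. Axl and Mertk are receptor tyrosine kinases that recognise phosphatidylserine through bridging proteins. Axl was at 1631, 1284 and 1036 CPM in normal and 1064, 341 and 472 CPM in metastatic libraries (-1.07 ± 0.61, adjusted p = 0.453), and library 1 overlapped the normal range. Mertk was at 327, 232 and 328 CPM against 189, 88 and 99.6 CPM, without overlap (-1.24 ± 0.74, adjusted p = 0.484).

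The mannose receptor Mrc1 was at 748, 1025 and 1262 CPM in normal and 657, 349 and 410 CPM in metastatic libraries (-1.10 ± 0.56, adjusted p = 0.406). Its groups were separate, with library 1 again nearest to the normal level. In the wider list of apoptotic cell clearance receptors and bridges, 13 of 23 tested genes had a negative fold change and the median was -0.20, close to that of all genes, but -0.71 over the 17 members averaging 20 CPM or more.

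Spic, the transcription factor required for iron-recycling macrophages, was at 510, 234 and 193 CPM in normal and 197, 63.9 and 48.5 CPM in metastatic libraries (-1.60 ± 0.74, adjusted p = 0.389). Metastatic library 1 lay just inside the normal range and the other two far below it. Siglec1, the sialoadhesin of resident marrow macrophages, differed little, at 355, 326 and 226 CPM against 262, 241 and 163 CPM (-0.44 ± 0.66, adjusted p = 0.917). Maf, a transcription factor of macrophage identity, had separated groups, at 394 to 444 CPM in normal and 187 to 350 CPM in metastatic libraries.

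**Figure D3:**
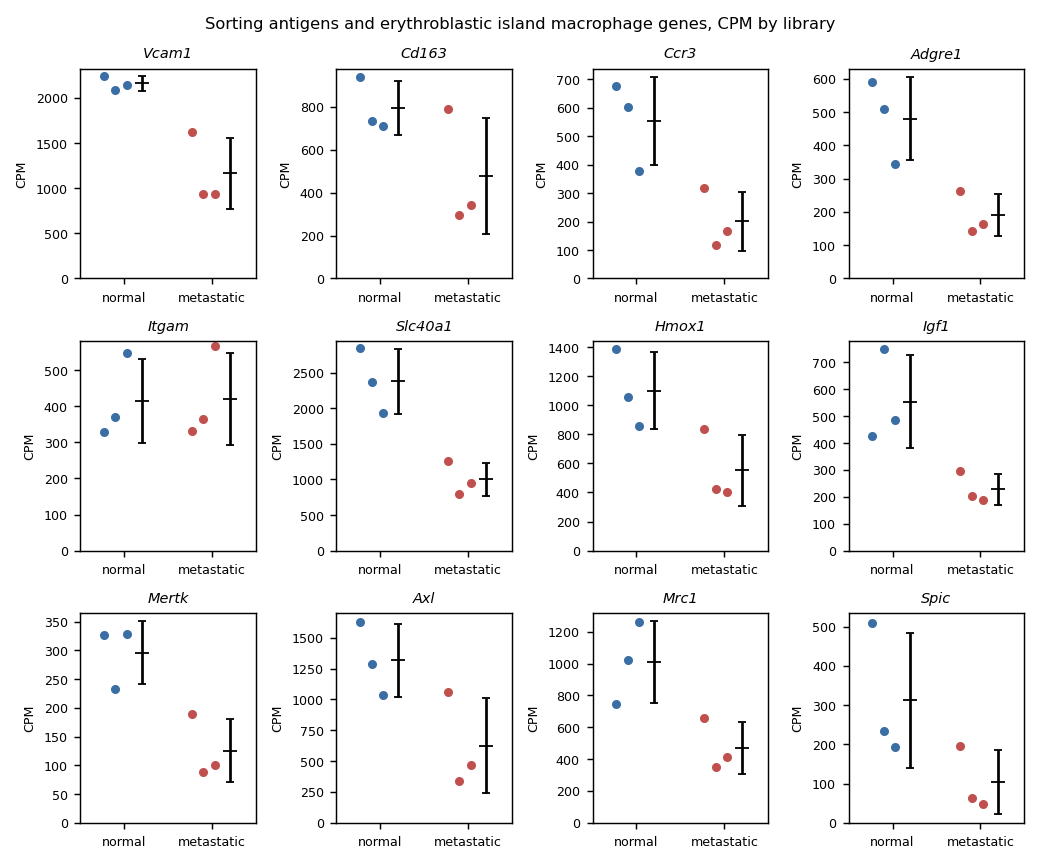
CPM of the sorting antigens and island macrophage genes by library, with axes from 0, points for libraries and the mean ± SD of each group of 3. Slc40a1 lies at 1927 to 2839 CPM in normal and 798 to 1258 CPM in metastatic libraries, and metastatic library 1 is the closest to the normal values for Vcam1, Cd163, Axl and Spic.

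Growth factors that macrophages supply to marrow cells had a median of -0.40 over 19 tested genes, 13 of them negative. The sign of this median was not stable: it was 1.31 without normal library C and 0.14 with limma-voom. Igf1, a survival factor for erythroid and tumour cells, was at 427, 751 and 485 CPM in normal and 295, 203 and 187 CPM in metastatic libraries (-1.28 ± 0.33, adjusted p = 0.221). Tgfb1, which encodes TGF-beta 1, was at 113, 99.2 and 99.0 CPM against 16.8, 15.3 and 39.8 CPM (-2.11 ± 0.58, adjusted p = 0.258). Osm, the cytokine oncostatin M, was at 81.6, 82.1 and 83.1 CPM against 38.4, 54.2 and 28.1 CPM (-1.03 ± 0.46, adjusted p = 0.381).

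These 3 were the members whose metastatic libraries all lay below the normal ones, and only Gdf15 lay above, with 3 counts or fewer in every normal library and 4.21 to 17.4 CPM in metastatic ones. Kitl, the ligand of the stem cell receptor Kit, was at 102, 92.1 and 48.8 CPM in normal and 90.1, 23.7 and 39.8 CPM in metastatic libraries, with overlap (-0.66 ± 1.06, adjusted p = 0.928). Under the alternatives its fold change lay between -1.355 and -0.319.

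Among adhesion molecules and integrins, 20 of 25 tested genes were negative, 5 were separated downward and 1 upward, and the median was -0.45, which differed by -0.28 from that of all genes and by -0.18 among genes averaging 20 CPM or more. With TMM factors 7.11% of all genes were separated downward and 5.63% upward. With library size as the only scaling, 2 members (8%) were separated in each direction, where 4.63% of all genes were downward and 7.58% upward. Itgav, a chain of a receptor for vitronectin and apoptotic cells, was at 325, 264 and 415 CPM in normal and 257, 150 and 194 CPM in metastatic libraries (-0.74 ± 0.30, adjusted p = 0.381). Itgb1, its possible partner chain, was at 582, 468 and 389 CPM against 339, 273 and 280 CPM (-0.69 ± 0.27, adjusted p = 0.381). Itgb2, the partner of CD11b, was the 1 member separated upward with TMM factors, at 188, 206 and 182 CPM in normal and 361, 270 and 261 CPM in metastatic libraries (0.63 ± 0.26, adjusted p = 0.381).

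MHC class II molecules show peptides of engulfed proteins to helper T cells. Of 16 listed genes of this presentation 14 were tested, none was called by edgeR's main test, 10 had a negative fold change, and 5 had separated groups downward and 1 upward (4 and 1 with library size as the only scaling), with a median of -0.77 in niche and -0.87 in general macrophages. The newer form of edgeR's test called 1 of the 14 lower, and DESeq2 called 2 higher and 2 lower. Of all genes 7.11% were separated downward and 5.63% upward, or 4.63% and 7.58% with library size as the only scaling, and their median was -0.17. The starts of 3 class II genes are shown because these 3 had values of each kind, lower, overlapping and higher, and each holds a CCAAT box. They cover 250 bases before to 50 bases after the RefSeq transcription start on GRCm38.p6, the assembly of the mm10 build named in the submitters' processing notes, with H2-Aa at chr17:34287774-34288073 on the minus strand, H2-Eb1 at chr17:34305617-34305916 and H2-DMb1 at chr17:34152941-34153240, both on the plus strand. Capitals mark the CCAAT box, written CCAAT or, from the other strand, ATTGG, and the palindrome TGACGTCA.
H2-Aa: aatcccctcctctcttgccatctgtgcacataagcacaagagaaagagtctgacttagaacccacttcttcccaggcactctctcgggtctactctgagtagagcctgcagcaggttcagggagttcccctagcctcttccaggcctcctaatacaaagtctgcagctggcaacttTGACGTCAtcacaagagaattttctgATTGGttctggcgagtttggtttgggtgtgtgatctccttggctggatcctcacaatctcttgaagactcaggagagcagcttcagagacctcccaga
H2-Eb1: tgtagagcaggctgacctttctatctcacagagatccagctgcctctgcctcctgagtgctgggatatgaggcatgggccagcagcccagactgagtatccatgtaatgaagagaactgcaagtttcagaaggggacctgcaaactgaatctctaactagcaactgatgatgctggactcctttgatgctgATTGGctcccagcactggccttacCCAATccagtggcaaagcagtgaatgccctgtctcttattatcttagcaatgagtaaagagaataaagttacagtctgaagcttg
H2-DMb1: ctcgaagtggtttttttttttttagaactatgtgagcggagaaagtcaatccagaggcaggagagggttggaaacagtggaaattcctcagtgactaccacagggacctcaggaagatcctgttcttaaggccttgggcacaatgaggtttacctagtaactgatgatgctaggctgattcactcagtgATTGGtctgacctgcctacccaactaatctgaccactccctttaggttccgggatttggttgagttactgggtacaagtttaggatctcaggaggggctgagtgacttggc

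In these windows ATTGG starts at position -48 in H2-Aa, -59 in H2-Eb1 and -61 in H2-DMb1, relative to the start, and TGACGTCA starts at -74 in H2-Aa. The CCAAT letters stood in 6 of the 10 class II list genes that had a promoter in the RefSeq table and in 37.9% of all 27025 promoters of that length. TGACGTCA, which does not overlap a CCAAT box, stood in 1 of the 10, H2-Aa, and in 1.88% of all promoters. The match says only that these letters are present.

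H2-Aa, the alpha chain of the class II molecule I-A (its gene is at chr17:34282744-34287823), was at 786, 706 and 815 CPM in normal and 273, 287 and 268 CPM in metastatic libraries. The replicates were tight and the groups far apart, yet the change missed the threshold (-1.48 ± 0.28, adjusted p = 0.0825). It passed in 6 of 18 alternatives. Its partner H2-Ab1 was at 758, 424 and 490 CPM against 254, 243 and 367 CPM (-0.95 ± 0.31, adjusted p = 0.381), without overlap.

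Cd74, the invariant chain that guards the class II groove, was at 224, 107 and 178 CPM in normal and 39.3, 35.4 and 80.5 CPM in metastatic libraries (-1.71 ± 0.54, adjusted p = 0.381). H2-DMa, a chain of the peptide-loading molecule, was at 210, 146 and 187 CPM against 114, 63.2 and 85.7 CPM (-1.04 ± 0.44, adjusted p = 0.381). Both had separated groups. H2-Eb1 overlapped, at 31.5, 23 and 95.2 CPM against 57.2, 14.2 and 35.3 CPM, and H2-DMb1 went the other way, with 3 counts or fewer in every normal library and 17.4, 12.9 and 11.5 CPM in metastatic ones. Reads of near-identical class II genes can be split between them by the counting.

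B cells and dendritic cells also carry class II. Of 17 tested B and plasma cell markers, 10 had a negative fold change, 5 were separated downward and 1 upward, and their summed level overlapped between the groups. Among all genes 7.11% were separated downward and 5.63% upward. The B cell genes Ms4a1, which encodes CD20, and Pax5 were lower in metastatic libraries, Ms4a1 at 373, 313 and 370 CPM against 33.3, 37.3 and 148 CPM (-2.27 ± 1.04, adjusted p = 0.388) and Pax5 at 113, 136 and 318 CPM against 22.3, 32.5 and 62.1 CPM (-2.28 ± 0.85, adjusted p = 0.381). Jchain, of antibody-secreting cells, was higher, at 221, 156 and 323 CPM against 348, 1250 and 534 CPM (1.61 ± 0.49, adjusted p = 0.355). All 3 had separated groups. Under the alternatives the fold change lay between 0.91 and 1.93 for Jchain, -3.32 and -1.93 for Ms4a1, and -2.80 and -1.68 for Pax5. The part of B and dendritic cell RNA in the class II values was not tested.

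MHC class I presentation, which shows peptides from inside the cell, had 19 of 23 tested genes negative, 5 separated downward, 1 separated upward and a median of -0.47. With library size as the only scaling, 3 were separated downward and 1 upward. Of all genes 7.11% were separated downward and 5.63% upward, or 4.63% and 7.58% with that scaling, and their median was -0.17. The heavy chain H2-D1 was at 653, 399 and 502 CPM in normal and 357, 272 and 284 CPM in metastatic libraries (-0.77 ± 0.27, adjusted p = 0.381). Tapbp, tapasin of the loading complex, was at 206, 148 and 208 CPM against 142, 109 and 102 CPM (-0.67 ± 0.34, adjusted p = 0.406). The heavy chain H2-K1 overlapped, and its fold change of -0.21 turned to 0.02 when only library size was used for scaling.

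Among sensors and signalling proteins of innate immunity, 18 of 23 tested Toll-like receptors and adaptors had a negative fold change and the median was -0.46. Of these 23, 2 were separated downward, a share near that of all genes, and 1 upward, the adaptor Tirap at 28.2, 56.1 and 14.1 CPM in normal and 92.1, 62.1 and 70.4 CPM in metastatic libraries. Tlr8, a sensor of single-stranded RNA in endosomes, was at 193, 164 and 244 CPM in normal and 133, 64.2 and 42.8 CPM in metastatic libraries (-1.32 ± 0.45, adjusted p = 0.381). Of 39 tested interferon-stimulated genes, 23 were positive, 7 were separated upward and 3 downward (8 and 1 with library size as the only scaling), and the median of 0.20 became -0.23 without metastatic library 1. Among all genes 5.63% were separated upward and 7.11% downward, or 7.58% and 4.63% with that scaling.

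Among the interferon genes, the antiviral Oas3 was at 91.2, 182 and 184 CPM in normal and 417, 220 and 213 CPM in metastatic libraries (0.89 ± 0.34, adjusted p = 0.381). Ifih1, a sensor of double-stranded RNA, lay the other way, at 243, 101 and 91.4 CPM against 87.6, 39.3 and 56.8 CPM (-1.24 ± 0.51, adjusted p = 0.381). Both had separated groups, so members of 1 pathway list lay in opposite directions.

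Immediate early genes, which cells switch on within minutes of a stimulus, including tissue dissociation, were higher as a group, although 11 of them had a library at 3 counts or fewer. Of 31 tested genes 22 were positive and 9 negative, 5 were separated upward, where 5.63% of all genes were, and none downward. None was called by edgeR's main test. Its newer form called 2 higher and DESeq2 called 3 higher, where 0.0621% and 4.88% of all genes were. The median was 0.53, and between 0.17 and 0.76 when 1 library was left out, while in general macrophages it was -0.03. Over the 22 members with a mean of at least 20 CPM it was 0.22.

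Fosb (chr7:19302696-19310118), a subunit of the AP-1 transcription factor, was at 165, 88.4 and 140 CPM in normal and 403, 737 and 212 CPM in metastatic libraries (1.78 ± 0.41, adjusted p = 0.16). Fos was at 214, 123 and 282 CPM against 508, 378 and 323 CPM (0.97 ± 0.32, adjusted p = 0.381), and Jun at 145, 103 and 56.7 CPM against 291, 268 and 165 CPM (1.25 ± 0.40, adjusted p = 0.381). The groups were separate for all 3, with gaps smaller than the SD of the 3 metastatic libraries.

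Egr1, a zinc finger transcription factor induced by growth factors, was at 0.325, 9.74 and 0.603 CPM in normal and 75.3, 96.1 and 39.5 CPM in metastatic libraries (4.3 ± 1.15, adjusted p = 0.249). Dusp1, a phosphatase that ends MAP kinase signalling, was at 31.2, 125 and 13.6 CPM against 272, 173 and 182 CPM (1.89 ± 0.57, adjusted p = 0.334). Without normal library B the fold changes were 7.20 for Egr1 and 3.23 for Dusp1, so their size depends on that library. Normal library B was the highest of its group for Egr1 and Dusp1 and the lowest for Fosb and Fos.

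Chil3 (chr3:106147554-106167564), a secreted chitinase-like protein of alternatively activated macrophages and of neutrophil precursors, was the abundant gene with the smallest p among those that were higher. It was at 3173, 4678 and 4608 CPM in normal and 7288, 8680 and 9606 CPM in metastatic libraries. Every metastatic library was well above every normal one, and the fold change of 1.04 ± 0.18 missed the threshold (adjusted p = 0.0825). It passed in 10 of 18 alternatives, and its fold change in general macrophages was 0.71.

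Other neutrophil genes lay in both directions. S100a8, which encodes a calcium-binding alarmin, overlapped, at 1157 to 1798 CPM in normal and 1534 to 1925 CPM in metastatic libraries (0.25 ± 0.22, adjusted p = 0.73). Cxcr2, the chemokine receptor of mature neutrophils, was at 196, 216 and 246 CPM against 80.6, 127 and 92.2 CPM (-1.14 ± 0.28, adjusted p = 0.19). Of 23 tested neutrophil markers, 14 were positive and 9 negative, 3 were separated upward and 4 downward, and with library size as the only scaling 6 and 3. Among all genes 5.63% were separated upward and 7.11% downward, or 7.58% and 4.63% with that scaling.

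Selenop, which encodes a secreted selenium carrier and is abundant in resident macrophages, had close replicates, at 1048, 1121 and 983 CPM in normal and 522, 541 and 505 CPM in metastatic libraries (-1.01 ± 0.28, adjusted p = 0.279). The list of antioxidant and selenoprotein genes had a median of -0.19 over 31 tested genes, of which 5 were separated downward and 1 upward (3 and 1 with library size as the only scaling). All genes had a median of -0.17, with 7.11% separated downward and 5.63% upward, or 4.63% and 7.58% with that scaling. Lipoprotein lipase (Lpl) was at 509, 454 and 560 CPM against 425, 144 and 186 CPM (-1.01 ± 0.42, adjusted p = 0.381), with library 1 nearest to the normal values, while lipid handling as a list had a median of -0.23 over 30 genes.

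**Figure D4:**
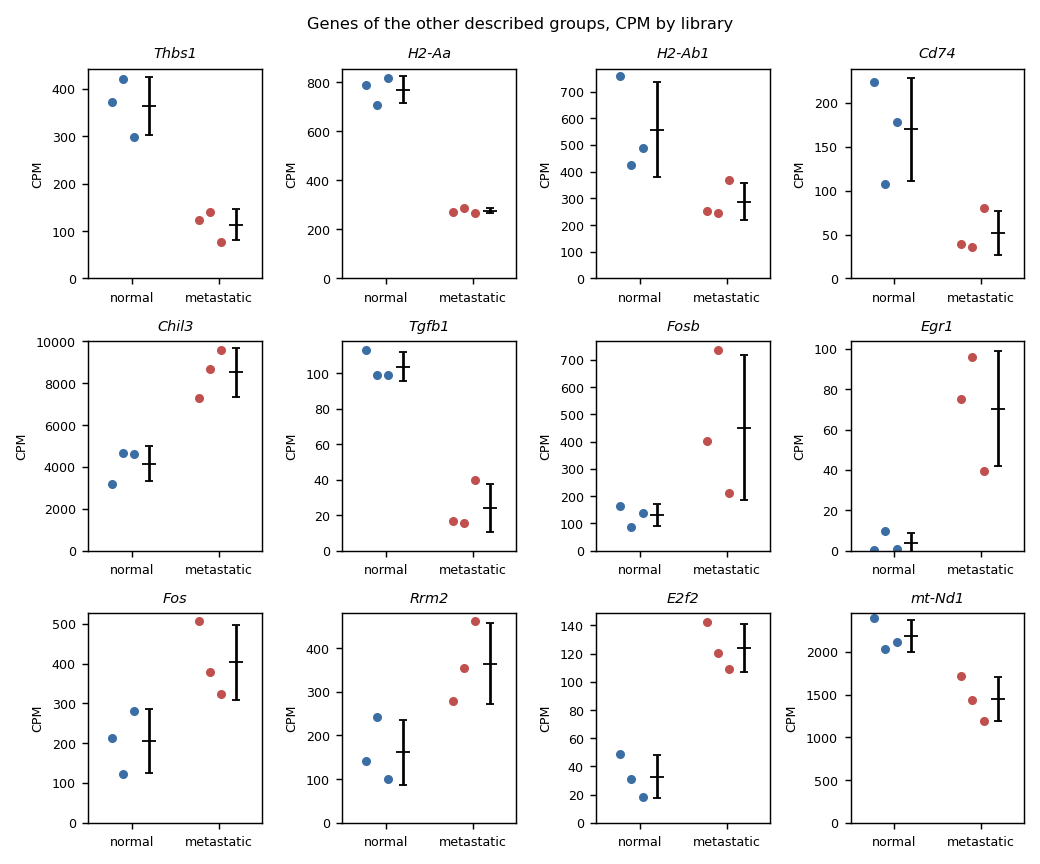
CPM by library for genes of the other groups described, with axes from 0, points for libraries and the mean ± SD of each group of 3. Thbs1 and H2-Aa are lower in all 3 metastatic libraries (Thbs1 at 77.3 to 139 CPM, H2-Aa at 268 to 287 CPM), and Chil3, Fosb and Egr1 are higher.

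Of 43 cell cycle and DNA replication genes, 26 were positive and the median was 0.15, which is 0.32 above that of all genes. Separated upward were 2 members, E2f1 and Rrm2, and none was separated downward. With library size as the only scaling, 7 were separated upward, where 7.58% of all genes were. In general macrophages 40 of the 43 were positive and the median was 0.63. Rrm2, a subunit of the enzyme that makes deoxynucleotides, was at 142, 242 and 99.2 CPM in normal and 278, 354 and 462 CPM in metastatic libraries (1.18 ± 0.33, adjusted p = 0.263). E2f2, a transcription factor of the cell cycle that is not on the list, was at 48.5, 31.2 and 18.2 CPM against 142, 121 and 109 CPM (1.93 ± 0.43, adjusted p = 0.149), also without overlap. Kif23, a motor protein of cell division that is also off the list, lay the other way, at 85.7, 74.6 and 77.1 CPM against 3.48, 20.8 and 24.1 CPM (-2.29 ± 0.66, adjusted p = 0.305). The proliferation marker Mki67 overlapped, at 321 to 516 CPM and 477 to 682 CPM (0.40 ± 0.27, adjusted p = 0.552).

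All 13 mitochondrially encoded subunits of the respiratory chain had a negative fold change, with a median of -0.38 and 4 separated downward (1 with library size as the only scaling). All 13 averaged 20 CPM or more, where the median of all genes was -0.26, a distance of -0.12. Of all genes 7.11% were separated downward, or 4.63% with that scaling. In general macrophages all 13 were positive with a median of 0.36. Genes of the mitochondrial genome made up 0.0846% of counts in general normal library 1, against 0.400% and 0.359% in libraries 2 and 3. The general metastatic libraries were at 0.353% to 0.390%. The part of general normal library 1 in the positive values was not tested. mt-Nd1, a subunit of complex I, was at 2393, 2039 and 2116 CPM in normal and 1712, 1440 and 1189 CPM in metastatic libraries (-0.59 ± 0.37, adjusted p = 0.516). The difference between the 2 sorts was not called for mt-Nd1 (adjusted p = 0.636). Most of these transcripts are cut from shared precursor RNAs, so they are not separate measurements. The subunits encoded in the nucleus had a median of 0.22 over 70 tested genes, or -0.15 over the 21 with a mean of at least 20 CPM.

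Groups with medians between that of all genes and 0, or just below, were lysosomal enzymes and membrane proteins (median -0.03 over 46 genes), macrophage lineage transcription factors (-0.00 over 29), cytosolic ribosomal proteins (-0.22 over 71), the unfolded protein response (-0.05 over 21) and osteoclast genes (-0.06 over 19). Glycolysis and the hypoxia response had a median of 0.08 over 28 genes, 0.25 above that of all genes. Within the transcription factors, 4 were separated upward and 6 downward, which turned to 6 and 4 with library size as the only scaling. Among all genes 5.63% were separated upward and 7.11% downward, or 7.58% and 4.63% with that scaling. Irf8, which directs monocyte and dendritic cell fate, was among those separated downward, at 153, 130 and 206 CPM in normal and 89.4, 40.0 and 86.0 CPM in metastatic libraries (-1.18 ± 0.46, adjusted p = 0.381). Myb, a factor of immature blood cells, was another, at 310, 388 and 355 CPM against 90.0, 190 and 229 CPM (-1.05 ± 0.34, adjusted p = 0.381).

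**Figure D5:**
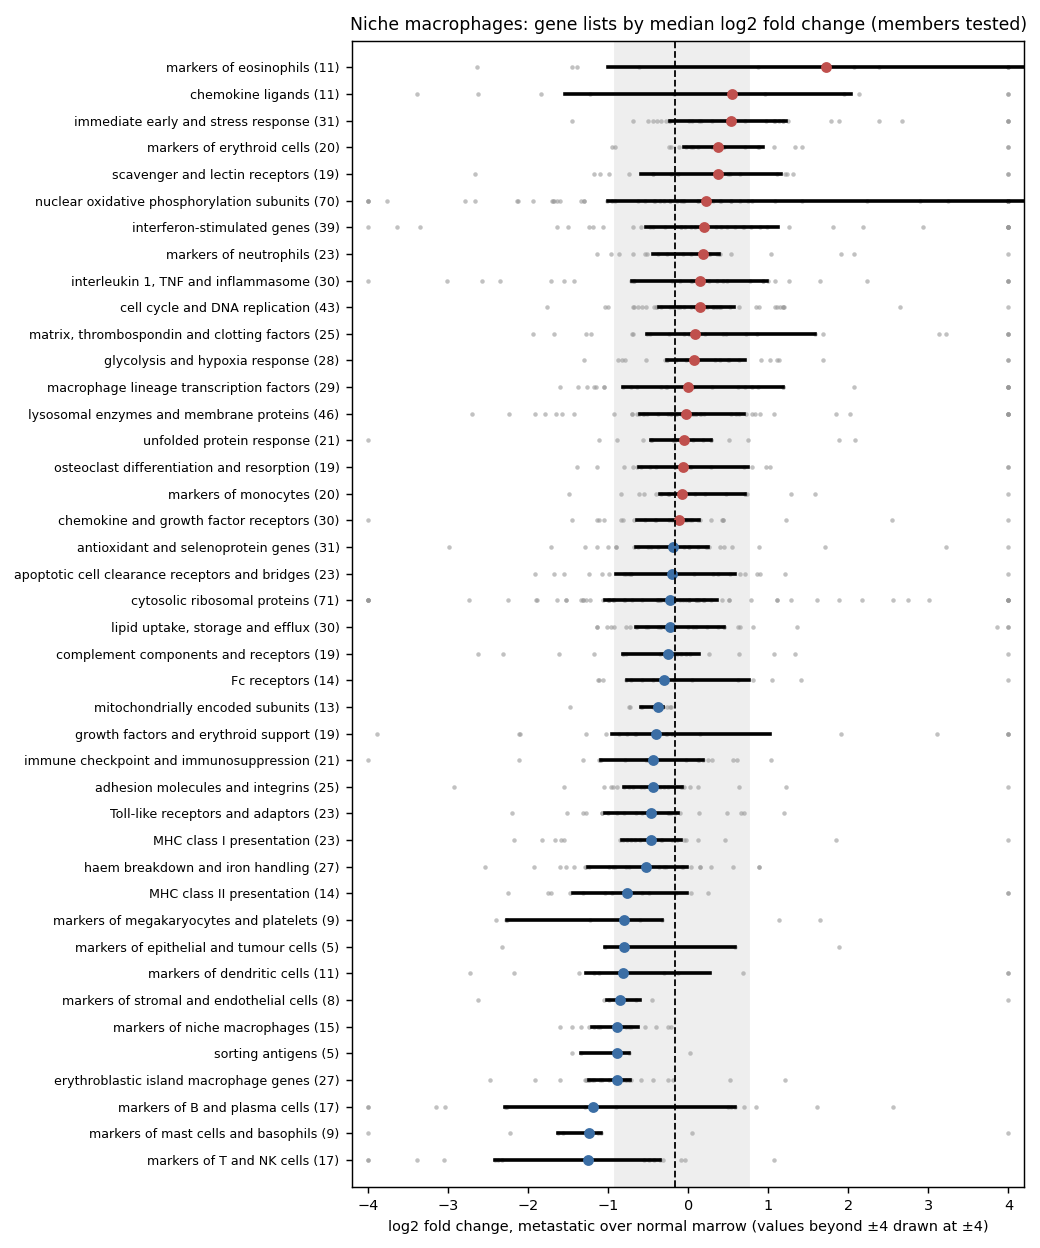
Log2 fold change, metastatic over normal, of the tested members of each gene list (grey points, drawn at 4 where larger in size), with the quartiles (bar) and the median (dot). The dashed line and band are the median (-0.17) and quartiles of all 12882 genes, and the island macrophage list has its median at -0.90 and the immediate early list at 0.53.

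Several genes were near 0 in 1 group. E2f1, which drives entry into DNA synthesis, was at 0.0812, 0.249 and 0.151 CPM in normal and 20.5, 37.3 and 24.4 CPM in metastatic libraries, and the replication factor Cdc45 at 0.325, 0.149 and 0.201 CPM against 52.8, 43.0 and 25.9 CPM. The scaffold gene Akap12 lay the other way, at 170, 25.2 and 50 CPM in normal and 0.252, 0.131 and 0.333 CPM in metastatic libraries. None was called by the main test, with adjusted p-values of 0.133 for E2f1, 0.208 for Cdc45 and 0.16 for Akap12. Fold changes are left out for these 3 genes because they rest on a few counts in 1 group.

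Some of the largest separated differences lay in better detected genes. Dusp7, a phosphatase of MAP kinases, was at 87, 130 and 226 CPM in normal and 32.8, 36.6 and 38.4 CPM in metastatic libraries (-2.04 ± 0.47, adjusted p = 0.16), and the histone deacetylase gene Hdac9 at 226, 147 and 224 CPM against 80, 27.8 and 44.5 CPM (-1.97 ± 0.59, adjusted p = 0.32). Cotl1, which encodes an actin-binding protein, was higher, at 5.68, 21.1 and 19.5 CPM against 57.5, 56.3 and 65.7 CPM (1.95 ± 0.52, adjusted p = 0.249). Ltb4r1, a receptor for the chemoattractant leukotriene B4 that is also on the neutrophil list, was at 41.9, 32.6 and 11.4 CPM against 73, 170 and 79.4 CPM (1.91 ± 0.50, adjusted p = 0.222). None of the 4 overlapped between groups and none was called by the main test.

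Erythroid genes included some that were near 0 in normal libraries. Hba-a1 was at 0.812, 0.249 and 0.251 CPM in normal and 141, 55.2 and 25.9 CPM in metastatic libraries (adjusted p = 0.305), and Alas2, the first enzyme of haem synthesis in erythroid cells, at 0.243, 1.89 and 0.251 CPM against 105, 16.7 and 8.94 CPM (adjusted p = 0.381). The near-identical copy Hba-a2 lay the other way, at 158, 128 and 68.2 CPM in normal and 135, 0 and 47.5 CPM in metastatic libraries. Summed over the copies, alpha globin was at 159, 128 and 68.4 CPM against 276, 55.2 and 73.4 CPM, with overlap. Hbb-bs, a beta globin, overlapped at 366 to 627 CPM and 272 to 667 CPM. How the counting divided reads between the alpha globin copies is not given in the sources used here.

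The effect of metastasis was also compared between niche and general macrophages. No gene was called for the difference by edgeR's main test, where 1016 genes had an unadjusted p under 0.05 and the smallest adjusted p was 0.452, while DESeq2 called 391. Vcam1 had a fold change of -0.89 in niche and 0.38 in general macrophages (difference adjusted p = 0.452) and Ccr3 -1.46 and 0.59 (0.452). Both were low in general macrophages, Vcam1 at 63.4 ± 20.6 (SD, n = 3) in normal and 82.4 ± 13.5 CPM in metastatic libraries and Ccr3 at 11.5 ± 2.83 and 17.3 ± 2.45 CPM. H2-Aa had -1.48 and -1.39, and the adjusted p of the difference was 1. The island list's medians of -0.90 and -0.16 are given side by side, with no test of the list's difference. Several of its members were low in general macrophages.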

How the data were processed

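The authors deposited 1 table of expected counts, estimated read counts per gene symbol that need not be whole, for 18467 genes and 12 libraries (73.9% of values were whole). The submitters' processing notes name STAR 2.7.3a, Partek, DESeq2 1.40.2, R 4.3.1 and mm10, with no role given. The counting method and strandedness are not given in the sources used here. Per the labels' protocols, marrow of femur and tibia was flushed, red cells were lysed, live single cells were sorted, and ribosomal RNA was depleted.

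Expected counts were rounded. filterByExpr kept 12882 genes. After TMM scaling, a model of 4 group means was fitted to the 12 libraries (edgeR 4.0.16, R 4.3.3), and quasi-likelihood p-values were adjusted by Benjamini-Hochberg. Genes with an adjusted p under 0.05 are called. The plan named edgeR's defaults as the main test and the legacy option as an alternative, but in this version the legacy option is the default. Both were run, and the default was kept as the main test after both counts were known. Standard errors come from the F statistic. The edgeR fits were tested on simulated data. Library measures were compared by exact two-sided permutation tests.

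Columns were matched to samples by name. Those of niche macrophages from normal marrow carry numbers that do not match the titles, so they are called A, B and C. Chi-square statistics of library pairs within a group were 256 to 344 per degree of freedom, far above sampling noise, and each library counts once. The members and gene lists were chosen with earlier results of these data known, so no p is given for a list. Genes named are the sorting antigens, called genes, from each list the first 2 members and the 4 with the smallest p at a mean of at least 10 CPM, and the 12 largest changes each way at a mean of at least 20 CPM. Timd4, Stab1, Maf, Gdf15, H2-Eb1, H2-DMb1, Ngp and Hbb-bs are outside this rule and were chosen after their values were seen. Some items are not reported here. Alternatives were other scalings, filters and tests (DESeq2 1.42.0, limma-voom with limma 3.58.1), other sets of genes or libraries, and leaving out each library.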

Additional observations from a re-analysis of the deposited data

How the results depend on the processing

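The number of called genes depended on the test, the filter and single libraries. Higher and lower calls numbered 0 and 1 in the main test, 1 and 2 with no low-count filter, 5 and 1 among genes averaging 20 CPM or more over all 12 libraries, 0 and 11 with limma-voom, 1 and 1 without small RNA genes, 0 and 0 with RLE factors, with library size only or with the 6 niche libraries alone, 628 and 312 with DESeq2 on all libraries and 596 and 328 with DESeq2 on the 6. Leaving out 1 library gave 0 to 58 higher and 0 to 8 lower calls, with 58 and 8 without normal library B and 23 and 3 without normal library C. Without edgeR's legacy option (chosen after seeing the data) they were 8 and 23, 15 and 11 with that filter on the 12 libraries, and 4 to 29 and 5 to 86 leaving out 1 library. The legacy option, listed as an alternative to edgeR's default, is the default and so the main test itself. The causes were not tested.

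Separated genes, 725 higher and 916 lower, numbered 386 and 434 at an average of 20 CPM or more over all 12 libraries, where fewer genes were tested, also without the legacy option, 976 and 596 with library size only, and 702 and 618 in the fit on the 6 libraries. With 1 library left out, which separates more easily, 1195 to 1540 were higher and 1420 to 1958 lower. The difference between sorts, with 0 calls, gave 391 with DESeq2 and 16 without normal library B.

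Of the medians of the lists and of all genes under the alternatives, 760 moved by less than the spread between libraries, 52 by more, and 3 changed sign by more: T and NK cell markers (-1.25) to 0.1277 at an average of 20 CPM or more over all 12 libraries and 0.07784 with that filter and no legacy option, and Fc receptors (-0.31) to 0.3527 with limma-voom. Counting moves of every size, 83 of the 797 values of the lists alone had another sign, in 24 lists. The lists of niche macrophage markers, island genes, haem and iron, adhesion, both MHC classes, Toll-like receptors, immediate early genes, cell cycle and mitochondrially encoded subunits were not among the 24. Itgam went from 0.02 to -0.003312 with DESeq2 on the 6 libraries, and with 1 library left out lay between -0.2658 and 0.2629, below 0 without metastatic library 3 (-0.2658), normal library A (-0.1394) or normal library B (-0.06474). H2-K1 (-0.21) went to 0.0229 with library size only. Hbb-bs (0.12) went to -0.1475 with limma-voom. Leaving out 1 library put Hbb-bs between -0.09273 (without metastatic library 2) and 0.4267, H2-Eb1 between -1.025 and 0.3813 (without normal library C), and Stab1 between -0.8232 (without metastatic library 1) and 9.04. None of these 5 genes was called. The cause was not tested.

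No paired analysis was possible because the 2 niche groups share no replicate numbers in the titles. Without metastatic library 1, Cd163 went to -1.32, Axl to -1.70, Spic to -2.48 and Lpl to -1.63. The common biological coefficient of variation was 1.30, and 7.31% of genes averaging 20 CPM or more over the 6 libraries still had a library at 3 counts or fewer.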
